A study of Mus musculus with 4 samples.

Results

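The 10 genes described here, all of them known from cytotoxic lymphocytes, were followed through the spleen CD11b+ cells of this study, and were chosen by name: Gzma, Gzmb, Prf1, Nkg7, Ifng, Klrb1c, Ncr1, Klrg1, Xcl1 and Ccl5, out of the 27998 genes in the deposited count matrix. The study sorted CD11b+ splenocytes of C57BL/6 mice, aged 8 to 12 weeks, by flow cytometry, labelled them with antibody tags for CD115, CD11c, Ly6C, MHCII and CD301b, and made 1 droplet library from mice at steady state and 1 from mice in what the labels call the GM-conditioned state, after 3 once-daily subcutaneous injections of 10 µg of GM-CSF, a cytokine that drives myeloid cell production. The steady-state library held 4827 cells and 22358903 UMIs (unique molecular identifiers, 1 for each captured transcript), with a median of 3371 UMIs a cell, and the GM-CSF library 6804 cells and 35007567 UMIs, with a median of 4916. With 1 library per condition there was no replicate, so no difference below has a test, a treatment effect and a library effect cannot be told apart, and every 95% interval covers counting error only. The cells were taken in the authors' deposited cell types and, for the monocytes, macrophages and dendritic cells (DCs) that the authors clustered again, in their RNA clusters numbered from 0 to 16. Those clusters were built from all genes, the 10 included, so levels between clusters are descriptions, and a level is a gene's summed UMIs divided by all UMIs of a group of cells, in CPM. Between the libraries 8 barcodes were shared, and none of those cells carried 7 or more of the 10 genes.

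Natural killer (NK) cells and cytotoxic T cells kill by releasing granules. Perforin (Prf1) opens the target cell to the granzymes Gzma and Gzmb, which are proteases that cleave proteins in the target, and Nkg7 is a membrane protein of the granules. Interferon gamma (Ifng) activates macrophages, and the chemokines Xcl1 and Ccl5 attract other cells, Xcl1 through its receptor Xcr1 on type 1 conventional DCs and Ccl5 through receptors that include Ccr1 and Ccr3. Klrb1c (NK1.1) and Ncr1 (NKp46) are receptors by which mouse NK cells are recognised, and Klrg1 is an inhibitory receptor of mature NK cells and effector T cells. Mature mouse NK cells carry CD11b on their surface, the protein by which the cells of this study were sorted.

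On GENCODE vM21 (GRCm38, the assembly behind the authors' mm10), the granule genes lie at chr13:113093825-113100981 (Gzma, minus strand), chr14:56258838-56262260 (Gzmb, minus strand), chr10:61297833-61304680 (Prf1, plus strand) and chr7:43437073-43438249 (Nkg7, plus strand). The receptor genes lie at chr6:128778485-128789215 (Klrb1c, minus strand), chr7:4337724-4345164 (Ncr1, plus strand) and chr6:122270596-122282882 (Klrg1, minus strand). The secreted factors lie at chr10:118441046-118445892 (Ifng, plus strand), chr1:164931644-164935527 (Xcl1, minus strand) and chr11:83525778-83530518 (Ccl5, minus strand). T-box factors (Tbx21 and Eomes) and RUNX factors direct gene expression in NK and cytotoxic T cells, so the 250 bases upstream of the members' starts were searched on both strands for a T-box core, GGTGTGA or its reverse complement TCACACC, and a RUNX core, TGTGGTT or its reverse complement AACCACA. Of 32851 RefSeq promoter windows of that length, 3.33% held the T-box core and 4.40% the RUNX core. Of the 8 members in the promoter table (all but Klrg1 and Ccl5), the T-box core stood in Nkg7 and Xcl1, and the RUNX core in Gzma, Gzmb, Ncr1 and Xcl1. A match is a description of letters and not of a site in use. The stretches below show the matches upstream of a gene's annotated span, each 5′ to 3′ on the strand of its gene, from RefSeq on GRCm38.p6, with the match in capitals.

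Xcl1 T-box core, chr1:164935679-164935735, minus strand: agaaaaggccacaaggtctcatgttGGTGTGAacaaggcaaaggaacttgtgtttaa
Xcl1 RUNX core, chr1:164935719-164935772, minus strand: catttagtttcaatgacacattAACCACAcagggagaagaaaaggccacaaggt
Ncr1 RUNX core, chr7:4337514-4337570, plus strand: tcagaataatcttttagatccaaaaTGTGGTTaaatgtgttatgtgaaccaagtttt
Gzma RUNX core, chr13:113101001-113101057, minus strand: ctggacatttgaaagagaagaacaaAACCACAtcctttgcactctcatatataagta
Gzmb RUNX core, chr14:56262337-56262393, minus strand: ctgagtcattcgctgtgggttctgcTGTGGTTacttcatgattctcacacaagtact

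The 10 genes together took 42083 UMIs in the steady-state library, 0.188% of the total, and 3511 UMIs in the GM-CSF library, 0.0100%. Most of them came from the cluster that the authors deposited as cDC2-A, which held 77.6% of these UMIs at steady state and 63.0% after GM-CSF. That cluster had 214 cells at steady state and 20 after GM-CSF. A further 17.2% of the steady-state UMIs lay in 59 cells of RNA clusters 7 and 8, 2.24% in the T cell cluster and 3.03% in all other cells. After GM-CSF, clusters 7 and 8 had 722 cells but 9 UMIs of the 10 genes, and 34.8% of the UMIs lay outside cDC2-A, T cells and these clusters. Nkg7 and Ccl5 made up most of that remainder: 57.4% of the Nkg7 UMIs and 45.0% of the Ccl5 UMIs of the GM-CSF library lay there. In the order of levels by cell type, cDC2-A came first for each of the 10 genes in both libraries. At steady state MoMacDC_c4, which holds the cells of clusters 7 and 8 that carried these genes, came second for every gene but Ccl5, where activated DCs did, and each time the interval of the cell type in that place lay above that of the next. After GM-CSF the 2 cell types that followed cDC2-A did not differ beyond counting error for Gzmb, Prf1, Klrb1c, Ncr1, Klrg1 and Xcl1, all of them with few UMIs or none outside cDC2-A.

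**Figure D1:**
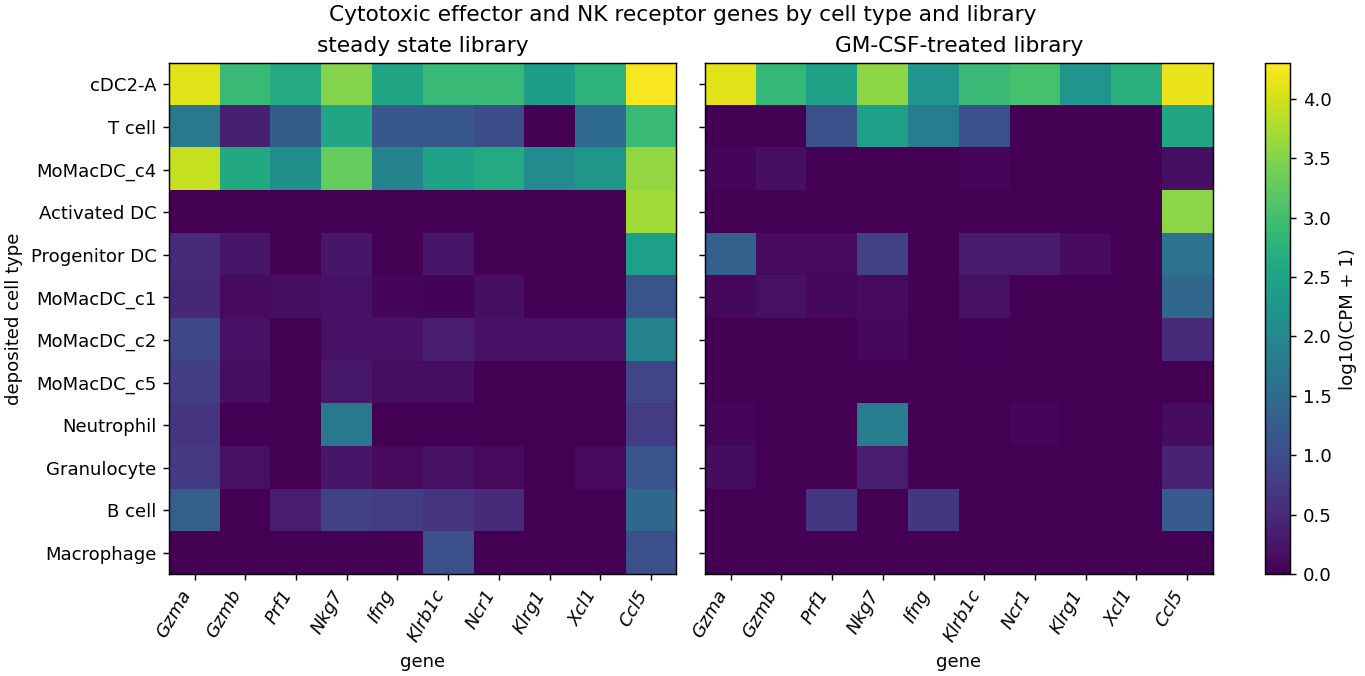
Level of each of the 10 genes, as log10(CPM + 1) of summed UMIs, in each deposited cell type (rows) for the steady-state library (left) and the GM-CSF library (right). The cDC2-A row is the brightest for every gene in both panels, the MoMacDC_c4 row (which holds cells of RNA clusters 7 and 8) is bright at steady state and dark after GM-CSF, and Ccl5 is also bright in activated DCs.

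The label of the cDC2-A cluster went against its transcripts. Of type 2 conventional DC (cDC2) genes, Cd209a was at 1.16 CPM (1 UMI in 214 cells) and the class II gene H2-Aa at 55.9 CPM, against 327 and 2226 CPM in 32 myeloid cells of clusters 7 and 8. The NK receptor genes Klra4 (1124 CPM), Klrd1 (1102 CPM) and Klre1 (1083 CPM) and the transcription factor Eomes (399.5 CPM), all of them known from NK cells, were high. Cd3e, Cd8a and Cd4 were at 0 UMIs, and 8 of the 214 cells held any UMI of the CD3 genes, against 172 of 174 cells of the T cell cluster. The tag for CD11c, which mouse NK cells also carry, had a median of 25 counts a cell, against 1 in the T cell cluster. The cluster is called cDC2-A below as deposited.

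Among the granule genes, Gzma stood at 12973 CPM (95% interval 12733 to 13216) in steady-state cDC2-A cells and at 12960.7 CPM after GM-CSF. Its UMIs per steady-state cell ran from 0 through a median of 50 to 141, and 98.1% of cells held at least 1. Gzmb stood at 819 CPM (759 to 882) and 717 CPM, with a median of 2 UMIs and a highest of 33 in a steady-state cell. Gzmb was the less widely found, in 79.4% of these cells, and 39 of the 214 cells held 50% of its UMIs, where 66 held 50% of the Gzma UMIs. Prf1 stood at 438 CPM (395 to 485) and 287 CPM, and 72.4% of the steady-state cells held a UMI. Nkg7 stood at 3120.3 CPM (3003 to 3241) and 3730.4 CPM, and each of the 214 and of the 20 cells held at least 1 UMI of it.

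The 3 receptor genes differed in how many cDC2-A cells held them. Klrb1c stood at 777 CPM (719 to 838) at steady state, in 85.5% of cells, and at 829 CPM after GM-CSF. Ncr1 stood at 777 CPM as well, in 92.5% of cells, and at 1116 CPM after GM-CSF. Klrg1 was detected in fewer cells, 52.3% of those at steady state and 40% after GM-CSF, with levels of 248 CPM (216 to 284) and 175 CPM.

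The secreted factors differed most in how they were spread over cells. Ccl5 stood at 17936 CPM (17654 to 18221) at steady state and 14714 CPM after GM-CSF, with a median of 65 UMIs and a highest of 229 in a steady-state cell. Ifng stood at 340.1 CPM (302 to 381) and 175 CPM, with a median of 0, a highest of 11 and a UMI in 44.4% of steady-state cells. Xcl1 stood at 592 CPM (541 to 645) and 542 CPM. At steady state Xcl1 came from few cells: 28.5% of them held it, 6 cells held 50% of its UMIs, and 1 cell held 106 of the 508. Without that cell its level was 471 CPM. After GM-CSF, 12 of the 20 cells (60%, 36.1% to 80.9%) held Xcl1, and 4 held Ifng (20%, 5.73% to 43.7%).

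A UMI can also come from free RNA in the droplet, so the shares were set beside cells that should lack these genes. In steady-state granulocytes, at a median of 1770 UMIs a cell against 3560 in cDC2-A, shares ran from 0% for Prf1 and Klrg1, which allows up to 0.156%, to 0.829% for Gzma and 2.02% for Ccl5. In the deposited type MoMacDC_c5, at a depth near that of cDC2-A (median 3763.5 UMIs), Gzma was at 2.26%, Ccl5 at 3.09% and the other members at or below 0.412%. Each member's share in cDC2-A was far above both. With each cell thinned to 1000 UMIs in 1 random draw, the cDC2-A shares at steady state were 97.2% for Gzma, 53.8% for Gzmb, 33.5% for Prf1, 92.9% for Nkg7, 20.8% for Ifng, 55.2% for Klrb1c, 58.5% for Ncr1, 24.5% for Klrg1, 18.4% for Xcl1 and 98.6% for Ccl5. Partial detection of the lower genes therefore moved with depth, and Xcl1 was the one least often found at steady state.

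The comparison of cDC2-A between the libraries asked whether the cells of this cluster carried these genes at other levels after GM-CSF. Summed over the 10 genes, the level was 38019.5 CPM at steady state and 35247 CPM after GM-CSF, a ratio of 0.927 (0.888 to 0.968). With all cells kept, none of the 10 genes was 2-fold higher or 2-fold lower after GM-CSF, where among the 3067 genes with at least 50 UMIs over both groups 3.52% were 2-fold higher and 13.5% were 2-fold lower. Gzma had a ratio of 0.9996 (0.929 to 1.07) and Gzmb of 0.885 (0.633 to 1.18). The ratio was 1.198 for Nkg7 (1.04 to 1.37) and 1.45 for Ncr1 (1.11 to 1.84), above 1 beyond counting error. It was 0.821 for Ccl5 (0.767 to 0.877) and 0.538 for Ifng (0.255 to 0.936), below 1 beyond counting error. Of the 11 Ifng UMIs after GM-CSF 6 lay in 1 cell, and without the highest cell of each group Ifng was more than 2-fold lower after GM-CSF, at 84.1 against 329 CPM. The intervals of Prf1, Klrb1c, Klrg1 and Xcl1 all included 1. The GM-CSF cells were shallower (median 2535 against 3560 UMIs), and several ratios changed after thinning. The summed ratio was then 1.02, that of Ccl5 1.002, of Nkg7 1.12 and of Ncr1 1.13. Klrg1, at 0.737 (0.348 to 1.29) before, turned to 1.31, Xcl1, at 0.929 (0.627 to 1.297) before, turned to 1.88, and Klrb1c, at 1.08 (0.789 to 1.42) before, turned to 0.899, so that no direction can be given for these 3 genes. Granulocyte transcripts were at 14475 CPM in the GM-CSF cells against 1264 CPM at steady state, with 881 of the 908 UMIs in 1 cell, and their part in the ratios was not tested.

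Against the T cell cluster, all 10 genes were at least 2-fold higher in cDC2-A at steady state, where 11.9% of the 4564 genes with at least 50 UMIs were. The summed level was 38019.5 CPM in cDC2-A and 1299 CPM in the 174 T cells, a ratio of 29.3 (27.4 to 31.3), and the median ratio was 38.7 over the 10 genes and 1.15 over all genes tested. The ratios of the single genes lay far apart. Gzma was at 52.3 CPM in T cells (ratio 245, 181 to 351), but 30 of its 38 UMIs there lay in 1 cell, and without the cell richest in the 10 genes on each side the ratio was 1100. Gzmb was at 1.38 CPM, which was 1 UMI (ratio 397, 106 to 23543). Klrg1 had no UMI in 174 T cells and was at least 60.1-fold higher in cDC2-A. Ncr1 (ratio 75.4) and Klrb1c (53.8) lay between these and the secreted factors and Prf1, with 23.6 for Prf1, 23.6 for Ifng, 22.0 for Ccl5 and 19.1 for Xcl1. Leaving out called doublets, 14 in cDC2-A (6.54%) and 15 in the T cell cluster (8.62%), put the ratio of Ncr1 at 325 and that of Ifng at 62.3. Nkg7 had the lowest ratio of the 10, at 344 CPM in T cells and a ratio of 9.06 (7.97 to 10.4). In the GM-CSF library, 5 of the 10 genes had 50 UMIs over both groups (Gzma, Nkg7, Klrb1c, Ncr1 and Ccl5), and all 5 were more than 2-fold higher in cDC2-A, where 14.2% of 337 genes were.

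**Figure D2:**
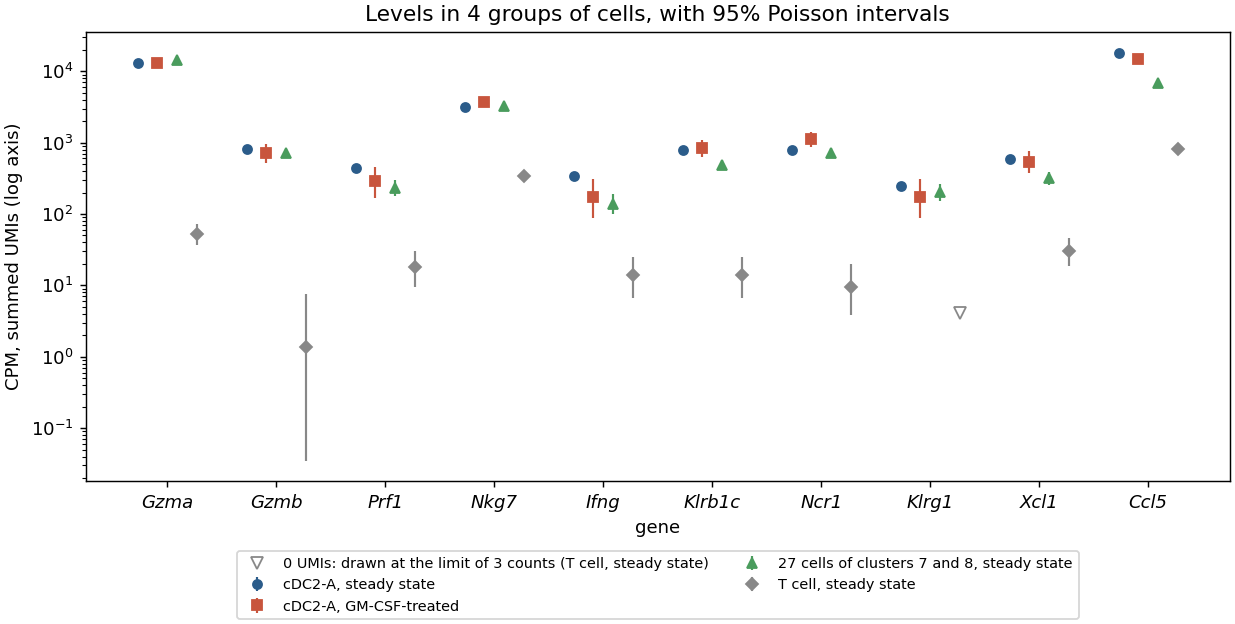
Level of each gene in CPM of summed UMIs (log axis) in cDC2-A of both libraries, in 27 cells of RNA clusters 7 and 8 at steady state and in the T cell cluster at steady state, with 95% Poisson intervals. The first 3 groups lie within 3-fold of each other for each gene, and the T cells lie below them, at 52.3 CPM against 12973 CPM for Gzma and at 344 CPM against 3120.3 CPM for Nkg7; Klrg1, with 0 UMIs in T cells, is drawn as an open triangle at the limit of 3 counts.

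The T cell cluster nonetheless held Nkg7 and Ccl5 in a part of its cells. Nkg7 was found in 41.4% of the 174 cells (24.9% after thinning) and Ccl5 in 17.8% (11.6% after thinning), against 0.412% and 3.09% in MoMacDC_c5 at nearly the same depth. All 72 cells with Nkg7 held a CD3 transcript, 56 held Cd8a or Cd8b1 and 3 held Cd4, where over all 174 cells 73 held a CD8 transcript and 50 held Cd4. Prf1 was found in 13 cells, 10 of them with a CD8 transcript. Gzma was in 5.17% of T cells, at 11.1 CPM without its highest cell, beside 2.26% in MoMacDC_c5. In the 39 T cells of the GM-CSF library (median 2357 UMIs), Nkg7 was at 268 CPM in 25.6% of cells and Ccl5 at 350 CPM in 12.8%, and the ratio to steady state was 0.791 for Nkg7 (0.498 to 1.17) and 0.435 for Ccl5 (0.294 to 0.606). Ccl5 in steady-state T cells rested on few cells, since 5 of them held 50% of its UMIs.

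Counting how many of the 10 genes each cell held separated the groups. Every cDC2-A cell held at least 4 of them in both libraries, and 80.4% at steady state and 65% after GM-CSF held 7 or more. In the T cell cluster 10.3% of steady-state cells (6.25% to 15.9%) held 3 or more, 3.47% after thinning, and none held 7, which allows up to 1.72%. The 20 T cells of both libraries with 3 or more of the genes all held a CD3 transcript, and 4 of the 20 were called doublets by Scrublet. Their Ccl5 level was 4489 CPM and their Nkg7 level 968 CPM, against 214 CPM and 242 CPM in the other 193 T cells, a direction that the choice of cells by these genes fixes. Outside cDC2-A and T cells, 28 of 4439 steady-state cells and 1 of 6745 GM-CSF cells held 3 or more, and each of those 29 held 7 or more, so no cell lay between 3 and 6 there.

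**Figure D3:**
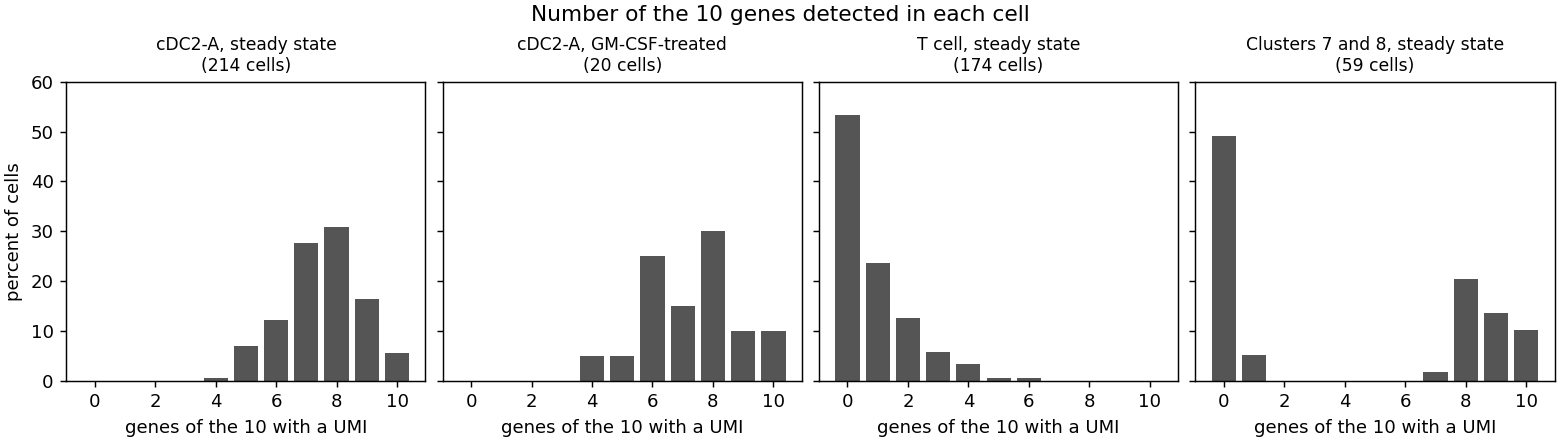
Percent of cells (y axis) by the number of the 10 genes with a UMI (x axis) in cDC2-A of both libraries and, at steady state, in T cells and in RNA clusters 7 and 8. The cDC2-A cells lie at 4 to 10 genes, the T cells mostly at 0 to 2, and the 59 steady-state cells of clusters 7 and 8 fall into 27 cells at 7 or more and 32 cells at 2 or fewer.

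Against the 59 steady-state cells of RNA clusters 7 and 8, all 10 genes were again at least 2-fold higher in cDC2-A, where 9.5% of 4525 genes were. The summed level was 12208 CPM in clusters 7 and 8 and the ratio 3.11 (3.04 to 3.20), with a median ratio of 3.15 over the 10 genes and 1.03 over all genes. Ccl5 was at 3083 CPM (ratio 5.82), Ifng at 62.5 CPM (5.37), Prf1 at 105 CPM (4.15) and Xcl1 at 142 CPM (4.15). Gzma was at 6417 CPM (2.02, 1.95 to 2.10) and Nkg7 at 1452 CPM (2.15). The cells of clusters 7 and 8 were deeper (median 8833 UMIs), and after thinning 6 of the 10 genes were at least 2-fold higher, while Gzma, Gzmb, Nkg7 and Ifng were at ratios of 1.43 to 1.87. These values are averages over cells of opposite kinds: 27 of the 59 cells held 7 or more of the genes, 5 of 31 in cluster 7 and 22 of 28 in cluster 8, and 29 of the other 32 held none. The 32 cells carried 5 UMIs of the 10 genes in all, and without the 27 the summed ratio was 2261.

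Compared with cDC2-A, those 27 cells had much the same levels of the granzymes, Nkg7 and Ncr1 and lower levels of Ccl5 and Xcl1. Gzma was at 14350 CPM (ratio to cDC2-A 1.11, 1.07 to 1.15), Nkg7 at 3248 CPM (1.04, 0.963 to 1.12), Ncr1 at 722 CPM (0.931) and Gzmb at 707 CPM (0.865). Ccl5 was at 6886 CPM (0.384, 0.366 to 0.403) and Ifng at 140 CPM (0.416), the only 2 of the 10 that were more than 2-fold lower, where 6.46% of 3714 genes were. Prf1 was at 231 CPM (0.530), Xcl1 at 318 CPM (0.539), Klrb1c at 488 CPM (0.630) and Klrg1 at 200.4 CPM (0.814). All 27 cells, chosen for 7 or more of the genes, held Gzma, Gzmb, Nkg7, Klrb1c, Ncr1 and Ccl5. Their median depth was 9133 UMIs against 3560 in cDC2-A, which was taken whole. That choice favours detection and level in the 27, and cDC2-A cells with 7 or more were not compared apart. The summed level was 0.718 of that in cDC2-A.

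Cell division genes were higher in the 27 cells than in cDC2-A. The paper describes clusters 7 and 8 as rich in proliferation signatures, so taking the cells from these clusters sets this direction. Mki67, a protein of dividing cells, was at 1660.0 CPM and Top2a, which untangles DNA in division, at 1732 CPM, against 15.1 and 25.6 CPM in cDC2-A. Each of the 27 held a UMI of Mki67 or Top2a, at 4 to 87 UMIs, where 23 of the 214 cDC2-A cells did, with at most 4. The authors' phase calls were G2M for 19 and S for 8 of the 27. The other 32 cells of clusters 7 and 8 also held these genes (440.2 and 312 CPM) but carried myeloid transcripts at levels the 27 did not reach: lysozyme Lyz2 was at 13277 CPM against 49.2, Cd74 at 5252 against 3.78, and Cd209a at 327 CPM against 0. Of the antibody tags, which the clusters did not use, CD11c and Ly6C differed most. The median CD11c tag was 54 counts in the 27 and 4.5 in the 32, and the median Ly6C tag 33 and 686. The median MHCII tag was 24 and 16.5, so it was not lower in the 27 as Cd74 was. The medians were 1 and 2 for CD115, and 0 and 2 for CD301b. Scrublet called none of the 59 a doublet. Of the 241 steady-state cells in cDC2-A, taken whole, and the 27, 11.2% (7.51% to 15.9%) lay in clusters 7 and 8. The 27 were chosen by 7 or more of the genes, which 172 of the 214 cDC2-A cells held. In the GM-CSF library none of the 722 cells of clusters 7 and 8 held 2 or more of the 10 genes, which allows up to 0.416%.

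The remaining 2 cells with 7 or more of the genes stood alone in their groups. One was a steady-state cell of the B cell cluster with 16 Gzma, 22 Ccl5 and 5 Cd79a UMIs. The other was a GM-CSF cell deposited as progenitor DC, in RNA cluster 12, with 59 Gzma, 15 Nkg7, 23 Ccl5, 74 Cd74 and 38 H2-Aa UMIs, and it held all Gzma UMIs of that cell type in that library. Both thus carried transcripts of antigen-presenting cells, and Scrublet called neither a doublet.

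The other genes of cytotoxic cells, taken from lists, went the same way as the 10 where cDC2-A was set against T cells. Of 29 other NK receptor and adaptor genes with at least 50 UMIs, 24 were 2-fold higher in cDC2-A and none lower, where 11.9% of all genes were higher and 5.04% lower, with a median ratio of 13.2 beside 1.15 over all genes. The signalling adaptors Tyrobp (2581 against 411 CPM) and Fcer1g (2064 against 281 CPM), both also known from myeloid cells, had the most UMIs. Klra4, a receptor of the Ly49 family, was at 1124 CPM against 1.38, and the lectin receptor genes Klrd1 and Klre1 were at 1102 against 131 and at 1083 against 34.4. Of 12 other granule and death ligand genes, 8 were higher and none lower. Srgn, the core protein of granule proteoglycans, had the most UMIs and was not 2-fold apart, at 790 against 546 CPM, followed by the protease inhibitors Serpinb9 (523 against 30.3 CPM) and Serpinb6b (449.6 against 26.1), the granule protease Ctsw (412 against 111) and Cst7 (211 against 53.6), an inhibitor of granule proteases. The granzyme genes Gzmc, Gzmk and Gzmm had 1, 3 and 13 UMIs in cDC2-A, too few to compare.

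Cytokine receptors, transcription factors and homing genes divided between the groups. Il2rb, a receptor chain for IL-2 and IL-15, was at 602 CPM in cDC2-A against 114 in T cells, and Il18rap, of the IL-18 receptor, at 698 against 38.5, while Il7r, the IL-7 receptor of T cells and other lymphocytes, was at 2.33 against 404 and Il21r, of the IL-21 receptor, at 11.6 against 79.8. In all, 5 of 9 cytokine receptor genes were higher and 2 lower, beside the 11.9% and 5.04% of all genes. Of 14 transcription factors 7 were higher, led in UMIs by Irf8 (1568 against 19.3 CPM) and Id2 (1383 against 219). The T-box factors Tbx21 (386 against 22.0 CPM) and Eomes (399.5 against 46.8) were among the 7. The 2 that were lower were Tcf7 (60.6 against 707) and Lef1 (37.3 against 529.6), both known from resting T cells. Of 12 maturation and homing genes 6 were higher, with Itgam at 508 CPM against 44.0 and Cma1, a protease, at 492 CPM against 0 (at least 119-fold), and 3 were lower, Cd27, Emb and S1pr1. Both genes with at least 50 UMIs of a list for tissue ILC1 (Cxcr6 and Il7r), relatives of NK cells, were lower. Of 4 other cytokine genes, Ccl4 was at 2545 against 9.63 CPM, Ccl3 at 1000.5 against 22.0 and Ccl9 at 47.8 against 17.9, while Ltb was lower, at 61.7 against 813. Of 17 T cell genes 14 were lower in cDC2-A and none higher, again beside 5.04% and 11.9% of all genes. Lck (365 against 398 CPM) and Cd2 (201.5 against 177), which NK cells also make, had the most UMIs of this list in cDC2-A and were not 2-fold apart.

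Against clusters 7 and 8 at steady state, where 9.5% of all genes were 2-fold higher in cDC2-A and 10.3% lower, the same lists gave 18 of 28 NK receptor genes higher, 5 of 13 granule genes higher and 1 lower (Lamp1), 4 of 7 cytokine receptor genes higher, 9 of 14 transcription factors higher, 6 of 11 maturation genes higher and 2 lower (Cxcr4 and Emb), and 2 of 4 cytokine genes higher and 1 lower (Ccl9). Of 5 T cell genes 3 were higher, Cd28, Lck and Zap70, of which Lck and Zap70 also serve signalling in NK cells. These counts average over the 27 cells and the 32 myeloid cells. All listed NK receptor genes summed to 16002 CPM in cDC2-A, 13303 in the 27 and 4237 in the 32. Granule genes summed to 3240, 2893 and 1730 CPM. After GM-CSF, within cDC2-A, no NK receptor gene of 27 was 2-fold higher and 2 were lower (Itga2 and Klri2), of 12 granule genes 3 were lower (Gnptab, Serpinb9 and Unc13d), of 7 cytokine receptor genes 1 was lower (Il12rb2), and of 12 transcription factors 3 were lower, Gata3, Irf8 (669.6 against 1568 CPM) and Zeb2 (430.4 against 956 CPM), shares to be read against the 13.5% of all genes. Of 9 maturation genes 2 were higher (Ctla2a and Cxcr4), where 3.52% of all genes were, and 1 was lower, Cx3cr1, with 1 UMI after GM-CSF. Several other genes named here also had few UMIs in the GM-CSF cells. Itga2 and Gnptab had 1, Unc13d 0, Il12rb2 and Gata3 2, and Cxcr4 7, so their ratios are uncertain.

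Lists of other cell types were summed in steady-state cDC2-A beside the T cell cluster. Of 4 B cell genes 6 UMIs were found in cDC2-A, of the basophil and mast cell genes and of the activated DC genes 0, and the monocyte list summed to 903 CPM against 422 CPM in T cells. Granulocyte genes summed to 1264 CPM against 2627 CPM in T cells, plasmacytoid DC genes to 125 against 131 CPM, and the 16 cDC2 genes to 521 against 499 CPM, where Itgax (CD11c) alone was at 221 CPM. Against clusters 7 and 8, 6 of 7 cDC2 genes and 3 of 5 monocyte genes were 2-fold lower in cDC2-A, where 10.3% of 4525 genes were. Those clusters mix the 27 cells with 32 myeloid cells. The cDC2 list summed to 12460 CPM in the 32 but to 238 CPM in the 27, below cDC2-A. Likewise the monocyte list summed to 3369 CPM in the 32 and to 480 CPM in the 27.

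Within the 214 steady-state cDC2-A cells the members were not all high in the same cells. The 112 cells with a Klrg1 UMI had more Gzma than the 102 without (14769 against 10894 CPM, ratio 1.36, 1.30 to 1.41) and more Ccl5 (21003 against 14387 CPM, ratio 1.46, 1.41 to 1.51), at similar depth (medians of 3624 and 3542.5 UMIs). They had less Xcl1, at 308 against 920 CPM, a ratio of 0.336 (0.274 to 0.408), and 0.466 (0.376 to 0.573) without the cell of 106 UMIs. Some genes of late NK cell maturation were also higher in cells with Klrg1. Ly6c2 had a ratio of 2.25, Cma1 of 2.22, Cx3cr1, a chemokine receptor, of 2.09 and Itgam, which encodes CD11b, of 1.66. Others differed less, with 1.19 for Zeb2 and 1.39 for S1pr5, whose interval included 1 without its highest cell. The intervals of S1pr1 and Tbx21 included 1. Nkg7 had a ratio of 1.14 (1.05 to 1.23) and Klrb1c of 1.24 (1.06 to 1.45). The intervals of Gzmb, Prf1, Ncr1 and Ifng included 1. Without the cell highest in the gene, the intervals of Gzmb (1.03 to 1.405) and Prf1 (1.03 to 1.59) lay above 1. Those of Ncr1 and Ifng still included 1.

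The 61 cells with Xcl1 stood at the other end. They had less Gzma (10495 against 14120 CPM, ratio 0.743, 0.712 to 0.776), less Ccl5 (14337 against 19602 CPM, ratio 0.731) and less Klrg1 (140 against 298 CPM, ratio 0.474) than the 153 without. Cx3cr1 was at 47.8 against 218 CPM, a ratio of 0.227 (0.114 to 0.389), and Zeb2, a factor of late maturation, had a ratio of 0.549. Ifng was higher in the cells with Xcl1, at 445 against 291 CPM (ratio 1.53, 1.201 to 1.94), as were the chemokine Ccl4, at 5189 against 1321 CPM (ratio 3.93, and 3.38 without its highest cell), Ccl3 (2.01) and Thy1, a surface protein of T cells and some NK cells (2.76). The cells with Xcl1 were deeper, with a median of 4078 against 3512 UMIs. The 95 cells with Ifng likewise had more Ccl4 (3870 against 1217 CPM, ratio 3.18) and Ccl3 (ratio 2.32) than the 119 without, at 3952 against 3456 UMIs, with less Klrb1c (0.705) and S1pr5 (0.474), a receptor for exit from tissue. Their Xcl1 was at 575 against 609 CPM, a ratio of 0.944, and of 1.57 without the cell of 106 UMIs. UMIs of 1 gene in few cells can set such ratios, and the part of depth in them was not tested.

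**Figure D4:**
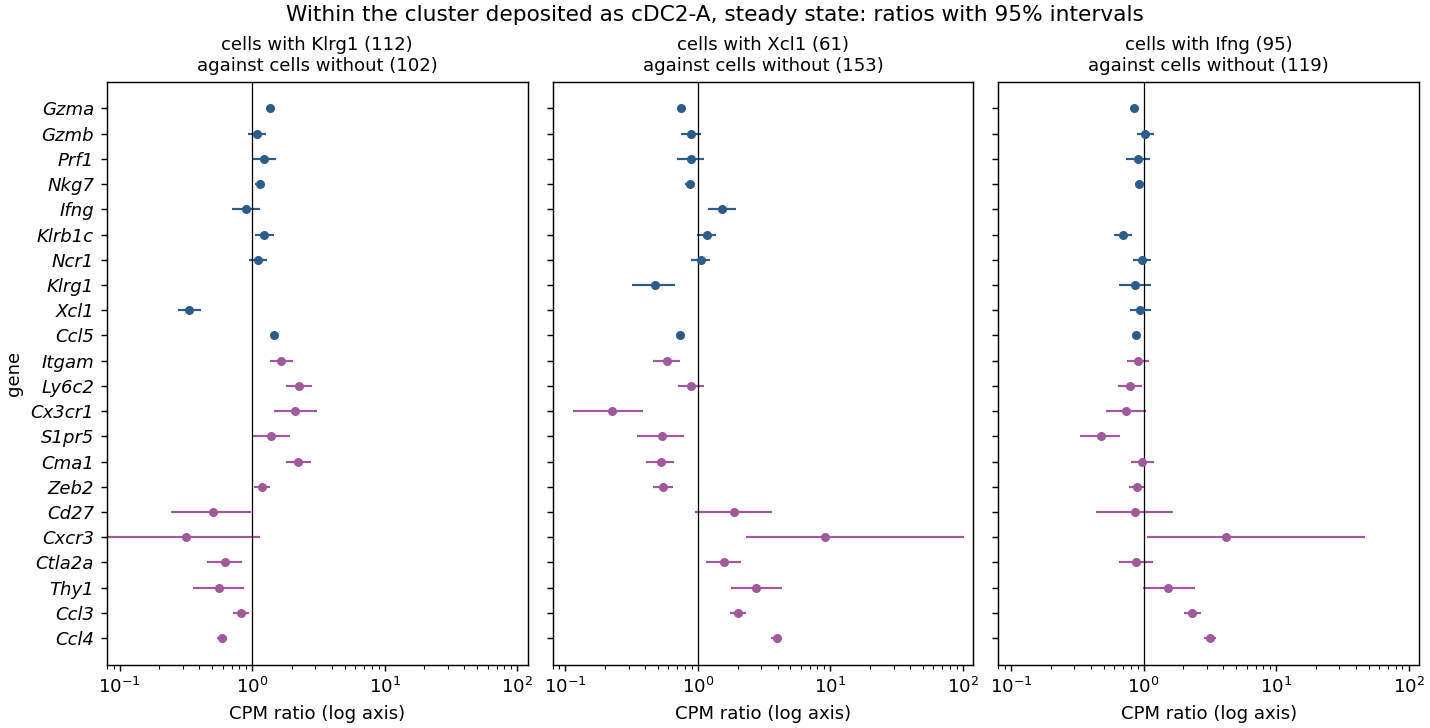
CPM ratio (log axis) of each gene between steady-state cDC2-A cells with and without a UMI of Klrg1 (left), Xcl1 (middle) or Ifng (right), with 95% counting intervals; members in blue, other genes in purple. Cells with Klrg1 lie above 1 for Gzma, Ccl5, Cma1 and Cx3cr1 and below 1 for Xcl1 and Ccl4. Cells with Xcl1 show the opposite for Gzma, Ccl5, Cma1, Cx3cr1 and Ccl4, and Ccl4 and Ccl3 lie above 1 in cells with Ifng. The gene that splits the cells is not drawn in its own panel.

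Ccl5 was the member most widely found outside cytotoxic cells. Activated DCs, few in number, held 407 Ccl5 UMIs in 8 cells at steady state (4967 CPM, in every cell, from 3 to 145 with a median of 36) and 406 UMIs in 20 cells after GM-CSF (3635 CPM, in 75% of cells). They held no UMI of the other 9 genes in either library. Progenitor DCs held Ccl5 at 264 CPM in 57.9% of 152 cells at steady state and at 42.9 CPM in 17.6% of 393 cells after GM-CSF, a ratio of 0.163 (0.132 to 0.200) at median depths of 7014 and 7152 UMIs. After thinning the shares were 19.2% and 3.60%. The granulocyte share moved in the same direction, from 2.02% (11.97 CPM) at steady state to 0.223% (1.66 CPM) after GM-CSF at medians of 1770 and 1229 UMIs, and its part in the progenitor DC values was not tested.

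By RNA cluster, Ccl5 was highest at steady state in clusters 8 (4128 CPM) and 7 (1796 CPM), where the 27 cells lay. Clusters 10 (874 CPM, 42 UMIs), 12 (313 CPM), 15 (276 CPM), 9 (218 CPM) and 14 (188 CPM) followed. The level of cluster 10 rests on few cells, since 29 of its 34 held none of the 10 genes, at a median of 1191.5 UMIs. After GM-CSF cluster 13 was the highest, at 880.0 CPM from 129 UMIs in 10 of 19 cells, and clusters 9 and 12 were at 45.7 and 39.6 CPM. The myeloid type MoMacDC_c1 stood at 12.3 CPM at steady state and 25.4 CPM after GM-CSF, and 166 of its 220 GM-CSF UMIs lay in 7 cells. Clusters 0 to 6 and 11 held all 10 genes together at 7.28 to 45.0 CPM at steady state and at 0 to 25.7 CPM after GM-CSF.

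**Figure D5:**
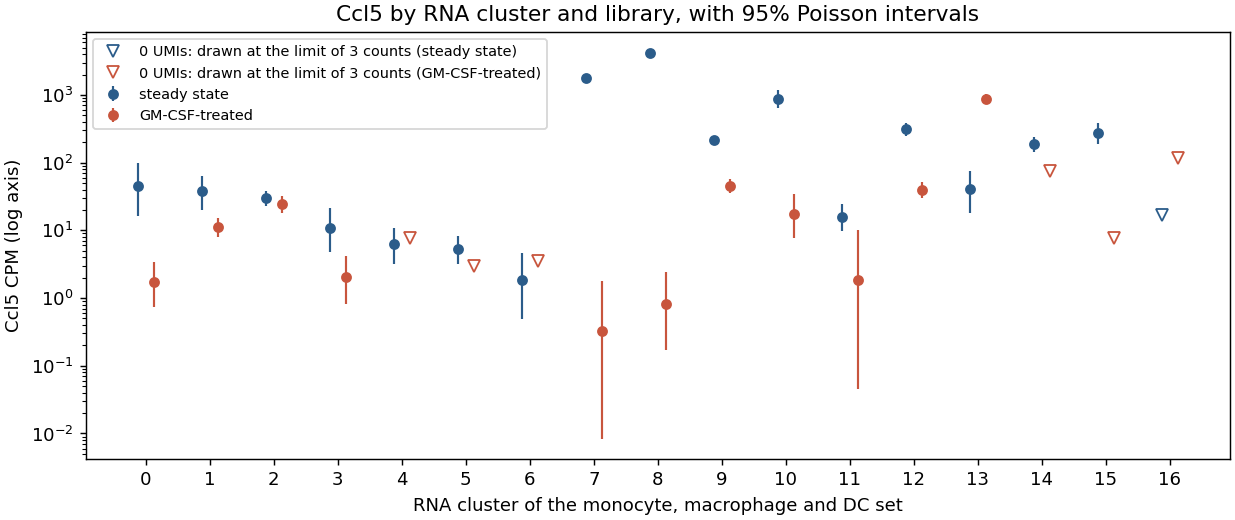
Ccl5 level in CPM (log axis) in each RNA cluster of the monocytes, macrophages and DCs (x axis, numbers 0 to 16) for both libraries, with 95% Poisson intervals; open triangles mark clusters with 0 UMIs, drawn at the limit of 3 counts. Steady-state points are highest in clusters 7 and 8, GM-CSF points in cluster 13.

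Nkg7 was also found in cells deposited as neutrophils, without the other members. At steady state 9 of 146 such cells (6.16%, 0.685% after thinning) held 58 Nkg7 UMIs, and after GM-CSF 61 of 893 (6.83%, 1.59% after thinning) held 325, at 53.2 and 65.8 CPM. In granulocytes the share was 0.156% and 0.168%. Few cells carried most of it, since 3 steady-state and 28 GM-CSF cells with at least 3 UMIs held 86.2% and 87.1% of the UMIs. The positive cells held 1 UMI of the other 9 genes in each library, and they were deep, with medians of 19699 and 13408 UMIs against 6205 and 4196.5 in cells without Nkg7. They also held the genes of primary granules, which neutrophil precursors make: Elane, neutrophil elastase, was at 3634 against 1.10 CPM at steady state and at 2715 against 1.46 CPM after GM-CSF. Ctsg, Mpo and Prtn3, further proteins of these granules, were among the 10 genes with the highest ratios in both libraries.

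Receptors of the secreted members were read in every cell type. Xcr1, the receptor of Xcl1, had 0 UMIs in steady-state cDC2-A, which allows up to 3.49 CPM, and at most 7 UMIs in any cell type of either library. Of the Ccl5 receptors, Ccr1 was at 1186 CPM in granulocytes at steady state and 744 CPM after GM-CSF. Ccr3 was at 623 and 466 CPM in the small cell type deposited as macrophages, with 60 UMIs in 25 cells and 22 UMIs in 22 cells. Ifngr1, a chain of the interferon gamma receptor, was at 839.7 and 859.7 CPM in MoMacDC_c5.

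Across the 23 combinations of cell type and library with at least 20 cells, the genes whose log2(CPM + 1) was most like that of the summed members were Osbpl3 (Pearson r = 0.88), Ppm1j (0.87), Nr4a3 (0.87), Serpinb6b (0.85), Tnfrsf9 (0.84), Ctsw (0.84), Samd3 (0.82), Eomes (0.82), Fryl (0.82) and Sytl2 (0.82), out of 3067 genes. The 23 points share 2 libraries and are not independent. Ccl5 set much of the sum, with r = 0.96 of its own against 0.75 for Klrg1 to 0.81 for Prf1. With Ccl5 left out of the sum, 4 of these 10 genes stayed among the 10 most alike, and Ctsw led with r = 0.94. Klrb1c, the Klra genes and the granzymes belong to gene families, some of them with closely similar copies. How reads shared between such copies were counted can move the values of those copies.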

How the data were processed

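Spleen CD11b+ cells of 1 steady-state and 1 GM-CSF library were analysed, in 11631 cells, of which the authors clustered 6075 monocytes, macrophages and DCs again. The deposited RNA and antibody tag tables held raw counts (UMIs per gene or tags per cell), which the authors made with Cell Ranger 3.0.2 on mm10 and filtered in Seurat to cells with 200 to 5000 genes and at most 15 percent mitochondrial UMIs. Their percent of mitochondrial UMIs, cell types, RNA clusters and phase calls were used as deposited. The second RNA and tag tables of the 6075 cells were not used, since their RNA counts were the same in every cell. How many mice made up a library is not given in the sources used here.

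Counts were summed per group and library and given as CPM of all UMIs (sum divided by the group's total) with exact Poisson 95% intervals, since cells are not replicates. Ratios of sums had 0.5 counts added to each, with exact binomial (Clopper-Pearson) intervals, and genes with at least 50 UMIs over both groups were counted as higher or lower at 2-fold. A sum of 0 was taken as at most 3 counts. Shares of cells were repeated with each cell thinned to 1000 UMIs (seed 20), which left out 38 steady-state and 578 GM-CSF shallower cells. Cells were kept whether or not Scrublet, in scanpy 1.11.5, called them doublets (2.92% at steady state, 2.73% after GM-CSF). Other tools were Python 3.11.15, numpy 2.4.6, scipy 1.17.1, pandas 2.3.3, anndata 0.12.19 and matplotlib 3.10.9. The interval and fold steps were tested on simulated data.

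The 10 genes and the gene lists were chosen with earlier results of these data known, so no list is independent evidence. Genes named are the 10, the list genes with most UMIs in steady-state cDC2-A or 2-fold the other way, the T-box factors whose motif was searched, the 10 most alike in pattern, and markers where a cell type was in question. The splits of cDC2-A by Klrg1, Xcl1 and Ifng, the division of clusters 7 and 8, and the genes given beside Nkg7 in neutrophils were chosen after the values were seen. A gene among the receptors read is not reported here. Promoter stretches came from RefSeq on GRCm38.p6. Alternatives were other treatment of doublets, mitochondrial limit, pseudocount, cell weight, depth, single cells, fold, minimum UMIs and group size.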

Additional observations from a re-analysis of the deposited data

How the results depend on the processing

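With 1 library per condition no alternative could test a difference, and the GM-CSF values rest on 20 cDC2-A cells and 39 T cells. Of the alternative values for the main comparisons, 93 stayed the same, 31 moved and 2 reversed. Ratios, levels and shares counted as the same within the counting interval of the main value. Counts of genes did so within a fixed fold of the main count. The ratio of the summed genes between cDC2-A and T cells, 29.3, was 33.1 without called doublets, 33.3 with each cell weighted alike, 33.4 after thinning to 1000 UMIs, 33.4 without the highest cell of each group and 50.01 in the GM-CSF library. All 10 genes stayed above 2-fold except in the GM-CSF library, where 5 had enough UMIs. The number of genes 2-fold higher, 542, was 186 after thinning, 939 with a minimum of 20 UMIs, 2449 with none and 48 in the GM-CSF library, as the genes tested differ. Against clusters 7 and 8, the summed ratio of 3.11 was 3.22 without doublets, 2.71 after thinning, 3.25 without the highest cells and 2261 without the 27 cells, an alternative chosen after seeing the data. There, 6 of the 10 genes stayed above 2-fold after thinning, and the number of genes 2-fold higher, 430, was 123 after thinning, 757 with a minimum of 20 UMIs, 2176 with none and 691 without the 27 cells. Between the libraries within cDC2-A, the summed ratio of 0.927 was 0.873 without the highest cells and turned to 1.003 with each cell weighted alike and to 1.02 after thinning, where that of Ccl5 turned to 1.002, that of Klrg1 to 1.31, of Xcl1 to 1.88 and of Klrb1c to 0.899, and the cause was not tested. Without doublets the summed level was 39293 CPM in steady-state cDC2-A, 36755 CPM in GM-CSF cDC2-A and 1187 CPM in steady-state T cells. The share of steady-state T cells with 3 or more of the genes, 10.3%, was 3.47% after thinning, 23.0% for 2 or more, 4.60% for 4 or more and 0% for 7 or more, and in cDC2-A 80.4% and 65% of cells held 7 or more. Of the 10 genes most like the sum, 2 stayed with groups of at least 50 cells and 4 without Ccl5. No paired analysis was possible because each condition had 1 library.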

Other observations

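The genes with the largest ratio of cDC2-A to T cells at steady state, outside the 10, were the protease Cma1 (422 UMIs against 0), the Ly49 receptor genes Klra4 (965 against 1), Klra8 (656 against 2) and Klra9 (485 against 2), the chemokine Ccl4 (2185 against 7), the lectin receptor genes Klrb1a (125 against 0) and Klrb1f (177 against 1), and Phactr3 (73 against 0), Serpinb9b (64 against 0) and Mcam (58 against 0). The genes with the largest ratio of the 27 cells of clusters 7 and 8 to cDC2-A were genes of the cell cycle. They were led by Cenpf (180 UMIs against 0), a kinetochore protein, and Nusap1 (106 against 0), of the mitotic spindle. Rrm2 (98 against 0), which makes nucleotides for DNA, came next. Taking the cells from clusters rich in proliferation signatures sets this direction.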
